A study of Homo sapiens with 20 samples.

Results

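Long non-coding RNAs are transcripts that are not translated. Many of the intergenic ones carry a LINC name, and those read from the strand opposite to a protein-coding gene are named after that sense gene with the ending -AS. Antisense RNAs often start near the promoter of their sense gene, and several long non-coding RNAs are known as interferon-induced transcripts. The 571 RNAs described here are the rows of the count table with a LINC number or an antisense name and a mean of at least 1 CPM (read counts scaled to the library's total) over all 20 libraries, out of 43366 rows. They comprise 228 LINC RNAs and 343 antisense RNAs, and the names alone apply to 3819 rows. The measured level therefore chose the members, and the level itself is only described. LINC00921 (1.01 CPM), JAKMIP2-AS1 (1.01) and LINC02585 (1.00) lay just inside the limit, and LINC01842, LINC01597 and DNAJC27-AS1, which all rounded to 0.996 or 0.997 CPM, lay just outside. Every other level is given as CPM with library sizes scaled by TMM, a normalization of composition.

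The RNA came from U2OS, an osteosarcoma cell line, as 5 WT clones and 5 ZBTB48 KO clones, each untreated or after 24 h with 250 U/ml IFNγ, a cytokine that acts through JAK-STAT signaling. ZBTB48 is a telomere-binding zinc finger protein that also acts as a transcriptional activator. Each replicate number within a genotype is a separate clone, so the 20 libraries form 4 groups of 5. Clones are numbered here by replicate, and in WT these numbers do not all match those in the authors' clone names. The comparisons ask which of these RNAs respond to IFNγ and whether loss of ZBTB48 alters their level or their response. A gene was called when its adjusted p was under 0.01 and its change more than 2-fold, by edgeR's quasi-likelihood test over all genes tested.

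Total counts per library ranged from 46652288 to 72952859, and the 571 RNAs together took from 0.381 to 0.461% of them. Without IFNγ, ZBTB48 mRNA ranged from 8.05 to 9.19 CPM in WT and from 1.27 to 11.3 CPM under the KO label, where replicate 3 was above every untreated WT library. The KO groups are therefore named by their label throughout, and the WT-KO counts are also given without replicate 3. An mRNA level does not show whether the protein is lost. In the study's blots of IFNγ-treated U2OS clones, CIITA, HLA-DMB and CD74 protein was low or not detected in every KO clone. Mesenchymal genes such as VIM (1209 to 1818 CPM) and SPARC (634 to 3300 CPM) were high, whereas COL1A2 (0 to 0.955 CPM) and TWIST1 (0 to 0.0635 CPM) were near 0. Of 136 interferon-stimulated genes listed, 132 were tested in the WT clones and 110 rose. The summed epithelial markers ranged from 8.4 to 52.9 CPM in untreated and from 4.15 to 26.2 CPM in treated WT clones, and the summed leukocyte markers did not exceed 1.14 CPM in any library. Their part in the results was not tested.

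The promoter sequences of 4 RNAs that rose with IFNγ are shown because they hold letters matched by the 2 interferon-response motifs searched. GAS, the gamma-activated sequence, was searched as TTCNNNGAA, and ISRE, the site of interferon regulatory factors, as GAAA, any 2 bases and GAAA again, on both strands with overlapping matches counted. Each window covers 250 bases before and 50 bases from the first listed start of the gene in RefSeq (GRCh38.p14), read along the strand of the RNA, with every match in capitals.

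PSMB8-AS1, plus strand of chr6:32843836-32844135, with an ISRE match at -44 and a GAS match at +18:
PSMB8-AS1: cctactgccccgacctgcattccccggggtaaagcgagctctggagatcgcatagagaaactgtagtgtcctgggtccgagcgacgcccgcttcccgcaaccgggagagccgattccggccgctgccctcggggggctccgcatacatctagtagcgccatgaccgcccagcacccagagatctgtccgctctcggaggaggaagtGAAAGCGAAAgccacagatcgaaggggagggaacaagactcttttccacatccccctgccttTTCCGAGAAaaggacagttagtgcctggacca
IRF1-AS1, named CARINH in this RefSeq release, plus strand of chr5:132410679-132410978, with 3 ISRE matches at -39, -33 and -6, of which the first 2 overlap:
IRF1-AS1: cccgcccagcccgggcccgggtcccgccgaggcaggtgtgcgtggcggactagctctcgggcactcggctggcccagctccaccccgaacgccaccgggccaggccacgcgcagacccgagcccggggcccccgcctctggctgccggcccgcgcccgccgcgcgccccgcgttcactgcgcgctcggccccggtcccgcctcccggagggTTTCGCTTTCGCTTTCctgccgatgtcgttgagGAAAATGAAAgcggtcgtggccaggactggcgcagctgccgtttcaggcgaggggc
LINC01358, plus strand of chr1:59020226-59020525, with ISRE matches at -221 and -159:
LINC01358: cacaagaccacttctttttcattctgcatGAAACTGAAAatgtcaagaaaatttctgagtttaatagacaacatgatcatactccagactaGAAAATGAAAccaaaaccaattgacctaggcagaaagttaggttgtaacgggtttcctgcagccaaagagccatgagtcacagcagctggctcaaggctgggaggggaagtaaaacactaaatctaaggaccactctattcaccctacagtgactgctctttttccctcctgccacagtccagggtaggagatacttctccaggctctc
MMP25-AS1, minus strand of chr16:3059321-3059620, with a GAS match at -169:
MMP25-AS1: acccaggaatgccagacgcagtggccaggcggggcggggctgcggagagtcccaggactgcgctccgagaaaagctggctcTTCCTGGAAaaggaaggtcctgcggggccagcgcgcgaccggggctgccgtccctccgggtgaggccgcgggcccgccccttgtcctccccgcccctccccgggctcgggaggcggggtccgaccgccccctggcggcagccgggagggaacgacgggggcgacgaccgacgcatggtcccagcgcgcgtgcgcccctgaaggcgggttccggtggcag

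Promoters could be matched for 419 of the 571 RNAs, 6 of them through an older symbol. Among all 27305 promoters of this length 7.88% held a GAS match and 3.65% an ISRE match, against 6.44 and 2.63% of the 419. Of the 15 RNAs called higher in either genotype that had a promoter, 2 held a GAS match and 4 an ISRE match, the fourth being LINC01138 at +19. The telomeric repeat TTAGGG, to which ZBTB48 binds at telomeres, was matched in 8.94% of all promoters, in 6.92% of the 419 and in 0 of the 15. A match describes letters in this window and does not show binding.

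Most of the RNAs were weakly expressed. The median of their mean levels was 2.84 CPM, 468 of the 571 lay under 10 CPM, and 4 reached 100 CPM. FGD5-AS1 was the most abundant by counts, with 272.9 CPM averaged over the libraries, followed by LINC03033 (172.0 CPM), OIP5-AS1 (146.9 CPM), CCDC144NL-AS1 (138.1 CPM), LINC00674 (76.6 CPM), LINC00667 (66.8 CPM), LINC00452 (57.1 CPM) and LINC00673 (52.9 CPM). Per kilobase of exon the order changed, with LINC03033 at 126 CPM per kb above FGD5-AS1 at 62.3 CPM per kb, and OIP5-AS1, a widely expressed cytoplasmic RNA, at 13.8 CPM per kb. None of these 8 was called in any comparison. The spread among clones was wide for some: LINC03033 ranged from 79.4 to 335 CPM in the untreated WT clones and from 32.4 to 207 CPM in the untreated libraries labelled KO, while FGD5-AS1 ranged from 290 to 381 CPM and from 191 to 340 CPM, respectively.

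IFNγ raised a small group of these RNAs strongly in the WT clones. Of 567 tested, 19 were called higher (11 LINC and 8 antisense RNAs, 3.35%) and 1 lower (0.176%), against 2.48% higher and 0.512% lower among all 19522 genes tested. The 4 members not tested, TP73-AS1, LINC02700, LINC01415 and LINC01029, failed the filter on low counts. Group values did not overlap for 42 members that were higher (7.41%, all genes 7.27%) and 11 that were lower (1.94%, all genes 3.88%). The median log2 fold change was -0.01 for the members and -0.03 for all genes. All 19 RNAs were higher in 5 of 5 WT clones with no overlap of the groups, and 4 of them had an untreated WT mean under 1 CPM, which leaves their treated libraries to carry them past the level limit. Without WT replicate 1 or WT replicate 2, 12 members were called in place of 20, and the share of all genes called in these fits is not given here.

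LINC01358, an intergenic RNA on chromosome 1 of GRCh38, showed the largest rise. Its 5 untreated WT libraries held 2, 2, 5, 0 and 0 counts, and the treated libraries of the same clones 125, 174, 399, 80 and 52 counts, which came to 2.34, 2.95, 5.44, 1.36 and 0.964 CPM. Hence it was at or under the floor of 3 counts in 4 of 5 untreated WT clones and above it in every treated one. The log2 fold change of 6.23 (SE 0.80, adjusted p = 0.000575) depends on how so few counts are handled and ranged from 2.38 to 6.63 over the alternatives. In the libraries labelled KO it rose from 0.038, 0, 0.247, 0.103 and 0.0197 CPM to 1.33, 1.49, 3.10, 1.03 and 2.28 CPM.

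PSMB8-AS1 and IRF1-AS1 are antisense RNAs of 2 classical IFNγ targets, the immunoproteasome subunit gene PSMB8 and the transcription factor gene IRF1. PSMB8-AS1 stood at 0.825, 1.47, 2.03, 1.76 and 0.643 CPM in the untreated WT clones and at 11.4, 14.2, 18.6, 13.1 and 6.69 CPM after IFNγ. Its log2 fold change was 3.23 (SE 0.37, adjusted p = 0.000249). IRF1-AS1 stood at 1.12, 1.15, 1.03, 1.19 and 0.539 CPM untreated and at 3.37, 5.36, 9.70, 7.69 and 8.04 CPM treated, a log2 fold change of 2.75 (SE 0.33, adjusted p = 0.000372). In both cases the lowest treated library lay well above the highest untreated one. The treated libraries labelled KO reached 7.91 to 13.4 CPM for PSMB8-AS1 and 5.43 to 10.9 CPM for IRF1-AS1, and both were called there too.

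Among the LINC RNAs with the largest rises, LINC01260 went from 0.181, 0.371, 0.507, 0.0317 and 0.0174 CPM to 6.82, 5.22, 8.42, 3.43 and 1.61 CPM, a log2 fold change of 4.52 (SE 0.77, adjusted p = 0.00333). Its untreated counts were few, and without WT replicates 1, 2 or 4 in turn its adjusted p was above the cut-off, at most 0.0321. LINC02100 went from 0.561, 0.248, 0.71, 0.492 and 0.191 CPM to 3.62, 3.58, 4.70, 3.89 and 2.5 CPM, a log2 fold change of 3.03 (SE 0.37, adjusted p = 0.000403). LINC02328 lay at 2.79, 3.01, 2.94, 1.06 and 0.782 CPM untreated and at 15.5, 15.6, 18.8, 8.04 and 7.47 CPM treated, so that WT replicates 4 and 5 were lower in both states. It was not past the cut-offs without WT replicates 1, 2 or 3 in turn. LINC00944 rose from 1.04 ± 0.325 to 6.47 ± 2.28 CPM (SD, n = 5) with a log2 fold change of 2.62 (SE 0.32, adjusted p = 0.000406).

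**Figure D1:**
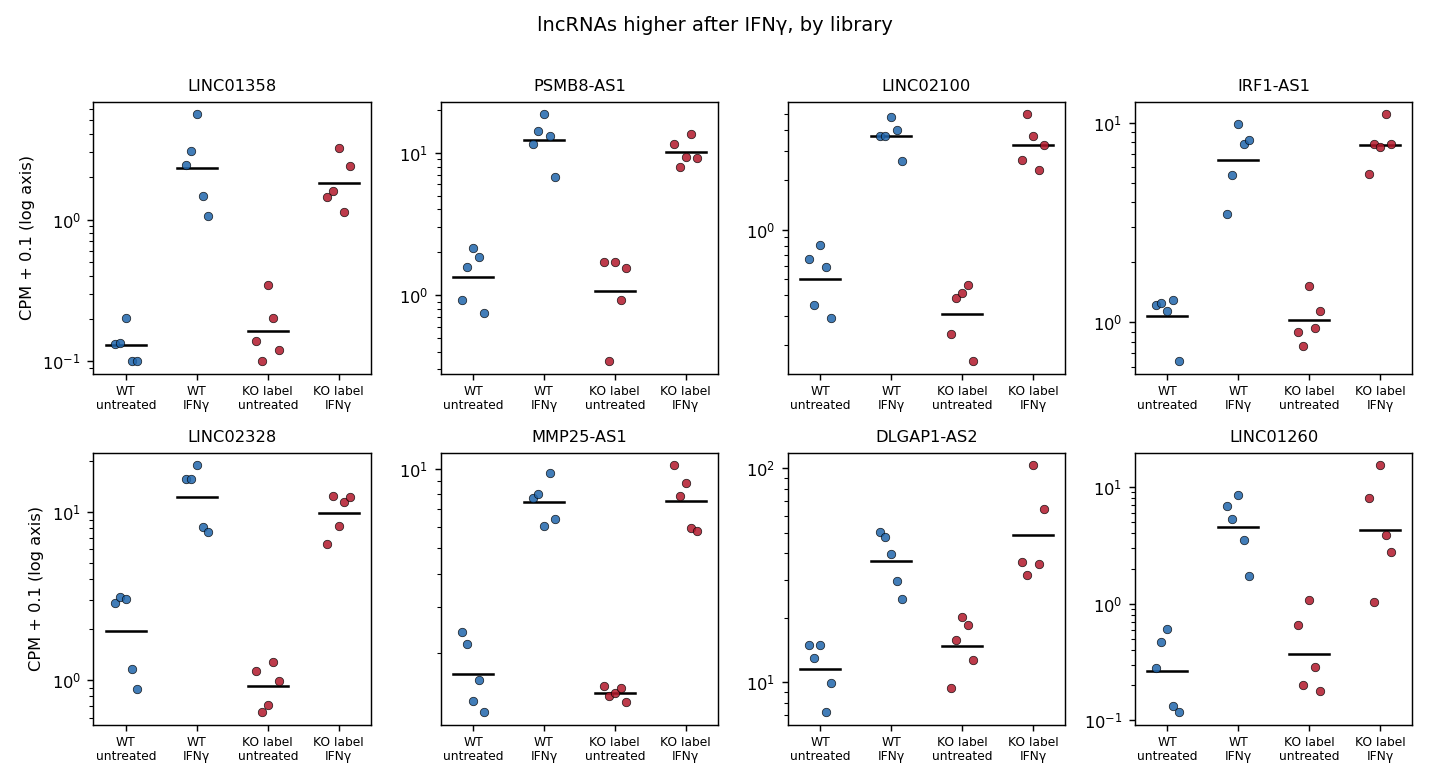
Levels of the 7 RNAs called higher with IFNγ in both genotypes, and of LINC01260, in each library on a log axis of CPM + 0.1. Points are libraries, bars are geometric means of 5 libraries, blue is WT and red is the KO label. Except for LINC01260 in the libraries labelled KO, every treated library lay above every untreated library of its genotype.

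The other RNAs called higher had smaller changes. LINC02970 (log2 fold change 2.44), MMP25-AS1 (2.18), LINC02984 (2.12), RARA-AS1 (1.71), DLGAP1-AS2 (1.67), LINC02085 (1.61), SH3RF3-AS1 (1.35), LINC00941 (1.33), LINC00623 (1.23), EPB41L4A-AS1 (1.16), THAP9-AS1 (1.03) and LINC01138 (1.02) made up the rest. Several of these calls did not hold when 1 replicate was left out. RARA-AS1 and SH3RF3-AS1 were not past the cut-offs without WT replicates 1, 2, 4 or 5 in turn, LINC00941 without 1, 2, 3 or 5, LINC02085 without 1, 2 or 5 and DLGAP1-AS2 without 2. THAP9-AS1 and LINC01138, both close to 2-fold, were not past them without WT replicate 1, with scaling by library totals or with DESeq2's normal shrinkage. With all 20 libraries fitted together, LINC00941, LINC02085 and THAP9-AS1 were not past them. LINC02085 carries the symbol RDUR in the RefSeq release used here. DLGAP1-AS2 stood at 38.3 ± 11.2 CPM (SD, n = 5) in the treated WT clones against 11.9 ± 3.36 CPM untreated. LINC01138 had narrow groups, with 5.64 to 7.25 CPM untreated and 13.1 to 14.3 CPM treated. EPB41L4A-AS1, which hosts a small nucleolar RNA, rose from 6.73 ± 0.355 to 15.2 ± 2.45 CPM.

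ARHGAP5-AS1 was the single RNA called lower. It stood at 2.77, 2.49, 3.34, 3.40 and 1.88 CPM in the untreated WT clones and at 1.09, 1.00, 1.58, 0.699 and 1.19 CPM in the treated ones, a log2 fold change of -1.33 (SE 0.27, adjusted p = 0.00898). The groups did not overlap in the libraries labelled KO either, with a log2 fold change of -1.36 (SE 0.37, adjusted p = 0.0486), not past the cut-offs. Over the alternatives in WT its value ranged from -1.47 to -1.09 and its adjusted p from 2.45e-05 to 0.0528, and it was not past the cut-offs without any 1 of the 5 WT replicates.

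The labels give both libraries of a clone the same replicate number and clone name, with IF added to the name after treatment. A fit with that number as a block called more. With it 41 members were higher and 15 lower in WT (all genes 4.44% higher and 2.80% lower), including all 20 called without it. The following were picked after their values were seen. LINC00511, a widely studied RNA in tumours, lay at 27.9, 27.4, 18.1, 9.13 and 34.7 CPM untreated and at 10.3, 12.2, 8.19, 2.30 and 17.5 CPM treated. It was lower in every treated WT clone while the groups overlapped, and its log2 fold change was -1.22 (adjusted p = 0.129 without the block and 3.2e-05 with it). IGFL2-AS1 lay at 2.89, 4.51, 4.97, 1.94 and 17.2 CPM untreated and at 0.843, 1.59, 3.24, 0.495 and 4.41 CPM treated, a log2 fold change of -1.57 (adjusted p = 0.190 without and 8.7e-05 with the block). LINC02806 lay at 0.181, 1.72, 0.689, 6.46 and 0.8 CPM untreated and at 12.9, 19.2, 10.8, 32.8 and 13.8 CPM treated, a log2 fold change of 3.15 (adjusted p = 0.0247 without and 0.00321 with the block). Its treated libraries all lay above its untreated ones, but WT replicate 4 was high in both states.

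The libraries labelled KO gave fewer calls with changes of like size. Of 567 members tested, 8 were called and all were higher (1.41%), against 1.70% higher and 0.258% lower of 19385 genes. Of these 8, 4 had an untreated mean under 1 CPM under the KO label. Group values did not overlap for 27 members that were higher (4.76%, all genes 6.05%) and 7 that were lower (1.23%, all genes 3.41%). The called RNAs were LINC01358 (log2 fold change 4.42), LINC02100 (3.82), LINC02328 (3.56), PSMB8-AS1 (3.15), IRF1-AS1 (3.03), MMP25-AS1 (2.53), DLGAP1-AS2 (1.84) and LINC00869 (1.15), and the first 7 of them were called in WT as well. The calls of LINC01358, PSMB8-AS1 and DLGAP1-AS2 were lost without 3, 4 and 5 of the KO replicates in turn, respectively. The call of LINC00869 was lost without KO replicates 1, 3, 4 or 5 in turn and with scaling by library totals, with an adjusted p of up to 0.0594. LINC00869 lay at 6.16, 4.24, 4.65, 4.33 and 5.03 CPM untreated and at 12, 7.44, 12.5, 13.2 and 9.40 CPM treated, and had a log2 fold change of 0.83 in WT (adjusted p = 0.026). With the block as labelled, 25 members were higher and 1, LINC00511, lower (all genes 2.71% and 1.01%). With replicates 4 and 5 exchanged between treated and untreated libraries, for the reason given with the clones, 43 were higher and 10 lower (all genes 3.83% and 2.40%).

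The 12 RNAs called higher in WT alone were not shown to differ in the libraries labelled KO. Of the 19 called higher in WT, 18 had a log2 fold change above 1 in the libraries labelled KO, and 17 were higher in all 5 labelled pairs there. The difference between the responses was tested over all 20 libraries, where 0 of 570 members and 0% of 21052 genes were called. At an unadjusted p under 0.05, 0 members and 86 of all genes (0.409%) passed by edgeR's test, and with the block 5 members (0.877%) and 317 of all genes (1.51%), and DESeq2 also called 0 members. Over the 19 RNAs the difference of the log2 fold changes, WT minus KO label, had a median of 0.04 and ran from -0.96 for LINC02328 (SE 0.51) to 1.80 for LINC01358 (SE 1.10). The standard errors ran from 0.22 to 1.13 in this fit, which does not pair the libraries of a clone. None of these differences was called, and the size of difference that could be detected was not computed.

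The spread within the KO label was wider for several of the RNAs. DLGAP1-AS2 reached 36.4, 31.5, 103, 35.7 and 64.4 CPM in the treated libraries labelled KO, EPB41L4A-AS1 30.5, 14.8, 46.8, 19.1 and 15.3 CPM, and LINC02085 6.19, 2.21, 22.5, 2.67 and 8.82 CPM. The highest library of all 3 was replicate 3, the clone in which ZBTB48 mRNA was not low. LINC02984 was highest in replicate 2, at 43.9 CPM against 7.20 to 19 CPM in the others. Without KO replicate 3, 5 members were called, and without KO replicates 1, 4 or 5 in turn 4 each, against 11 without replicate 2. The share of all genes called in these fits is not given here.

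No member was called between WT and KO labels. Of 567 members tested in each condition, 0 were called untreated (all genes 0.0154%, 3 of 19505) and 0 after IFNγ (all genes 0.0155%, 3 of 19383), and 0 without KO replicate 3 in either. At an unadjusted p under 0.05, 18 members (3.17%) passed untreated and 20 (3.53%) after IFNγ by edgeR's test, against 4.79 and 4.35% of all genes, and DESeq2 called 0 in both. The median log2 fold change of the members was 0.04 untreated and -0.01 treated. Group values did not overlap for 4 members higher and 2 lower in the untreated WT clones (all genes 0.528% and 0.431%) and for 1 higher and 2 lower after IFNγ (all genes 0.573% and 0.253%). No member was separate in the same direction in both conditions (all genes 0.208%).

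The members whose groups did not overlap were picked by that pattern, and none of them was called. PIK3CD-AS2 stood at 7.59, 6.93, 9.26, 9.68 and 9.30 CPM in the untreated WT clones and at 4.58, 3.41, 4.70, 5.79 and 6.25 CPM in the libraries labelled KO. This gave a log2 fold change of 0.80 (SE 0.20, adjusted p = 0.861), and after IFNγ it was 0.76 with the lowest WT library (5.61 CPM) just under the highest library labelled KO (5.67 CPM). DHRS4-AS1 stood at 18.7, 21.0, 25.0, 25.6 and 25.0 CPM against 17.2, 17.4, 16.9, 14.7 and 11.6 CPM, a log2 fold change of 0.58 (SE 0.15, adjusted p = 0.873). PANK2-AS1 (0.34) and LINC03021 (0.28) were the other 2 higher in untreated WT clones, and EPB41L4A-AS1 (-0.50) and PAN3-AS1 (-0.60) were lower. After IFNγ PRKCZ-AS1 (0.59) was higher in WT and LINC01503 (-1.07) and ZIM2-AS1 (-2.23) were lower, all with adjusted p of 0.979 or 0.996.

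ZIM2-AS1, antisense to the imprinted gene ZIM2, had lower values in WT in both conditions. It lay at 0.660, 0.177, 0.466, 0.429 and 0.0695 CPM in the untreated WT clones and at 2.43, 0.989, 1.37, 2.25 and 0.631 CPM in the untreated libraries labelled KO, where only the lowest value overlapped, a log2 fold change of -2.08 (SE 0.57, adjusted p = 0.873). MAP3K4-AS1 was picked after its values were seen. It lay at 10.4, 24.5, 22.9, 24.3 and 20 CPM in the untreated WT clones against 8.90, 7.93, 6.48, 8.61 and 13.3 CPM, a log2 fold change of 1.18 (SE 0.26, adjusted p = 0.574), and its treated log2 fold change was 1.14 (SE 0.36, adjusted p = 0.996). Its groups overlapped in both conditions.

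Antisense RNAs were set beside their sense genes. The sense gene was in the table for 338 of the 343 antisense members, and 337 of these lay on the opposite strand. The starts lay within 1 kb on opposite strands in 129 pairs, the gene bounds overlapped otherwise in 192, and 17 were apart. Of the 321 pairs tested with IFNγ in WT, 192 shared exon bases. The strand setting of the counting is not given in the sources used here, so where exons are shared the reads of a pair cannot be told apart. Across 321 pairs tested with IFNγ in WT, Pearson's r between the log2 fold changes was 0.53 and Spearman's rho 0.43, and 205 pairs (63.9%) had the same sign. For the 323 pairs tested in the libraries labelled KO they were 0.51 and 0.41. Between WT and KO labels neither gene of any pair was called, and the agreement was of like size. Untreated, r was 0.38, rho was 0.43 and 66.5% of 322 pairs had the same sign. After IFNγ the values were 0.47, 0.45 and 64.5% of 321 pairs. The agreement was thus not particular to the IFNγ response. These are descriptions across genes measured in the same libraries, which are not independent replicates. In WT the antisense RNA was called in 9 of the 321 pairs, the sense gene in 13 and both in 4, each time in the same direction. Among all 19522 genes tested in WT, 2.48% were called higher and 0.512% lower. Whether genes of these pairs were called more often than other genes was not tested.

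The pairs called together in WT were those of IRF1, PSMB8, MMP25 and SH3RF3. IRF1 rose from 16.8 ± 1.28 to 527 ± 61.9 CPM (SD, n = 5), a log2 fold change of 4.96, beside 2.75 for IRF1-AS1, whose exons shared no base with those of another gene and whose start lay 79844 bases from that of IRF1. PSMB8 rose from 51.7 ± 18.3 to 366 ± 64.9 CPM (log2 fold change 2.81, against 3.23 for PSMB8-AS1), and 31.0% of the exon bases of PSMB8-AS1 were shared with PSMB8 or TAP1 on the other strand. MMP25, which encodes a membrane-bound matrix metalloproteinase, rose from 1.31 ± 0.52 to 4.02 ± 0.38 CPM (log2 fold change 1.60, against 2.18), with 26.5% of MMP25-AS1 shared with it. SH3RF3 rose from 20.5 ± 3.32 to 49.2 ± 11.7 CPM (log2 fold change 1.25, against 1.35), with 32.5% of SH3RF3-AS1 shared. The MMP25 call was lost without any 1 of the 5 WT replicates, that of SH3RF3-AS1 without WT replicates 1, 2, 4 or 5 in turn and that of SH3RF3 without WT replicate 2, so only the IRF1 and PSMB8 pairs kept both calls in all of these. In the libraries labelled KO the IRF1 and PSMB8 pairs were called together.

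In other pairs the antisense RNA moved and its sense gene did not pass the test. DLGAP1 had 1.57 ± 1.05 CPM untreated and 1.54 ± 0.92 CPM treated in WT beside the rise of DLGAP1-AS2, and THAP9 had 5.76 ± 0.94 and 5.86 ± 0.58 CPM beside THAP9-AS1. EPB41L4A had 10.5 ± 5.74 and 12.2 ± 7.16 CPM. RARA, the retinoic acid receptor alpha gene, had 95.5 ± 22.9 and 139 ± 21.5 CPM (adjusted p = 0.0512) beside RARA-AS1 at 0.64 ± 0.17 and 2.10 ± 0.64 CPM, of which 42.0% of the exon bases are shared. ARHGAP5 stood at 142 ± 16.2 and 135 ± 17.7 CPM while ARHGAP5-AS1, which shares 60.7% of its exon bases with it, fell from 2.78 ± 0.63 to 1.11 ± 0.32 CPM. These sense genes thus differed by less than their called antisense RNAs on the log2 scale, a difference that was not tested.

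For 9 sense genes the call was not shared by the antisense RNA. Apart from HLA-F-AS1 and RNF213-AS1 these pairs were picked after their values were seen. HLA-F, a non-classical MHC class I gene, rose from 15.2 ± 7.37 to 129 ± 34.7 CPM (log2 fold change 3.07, SE 0.36, adjusted p = 0.000291). HLA-F-AS1 lay at 1.62, 2.60, 2.45, 1.98 and 1.32 CPM untreated and at 0.899, 1.92, 2.22, 1.5 and 0.760 CPM treated (log2 fold change -0.46, adjusted p = 0.435), lower in every clone with overlapping groups. A2M, the protease inhibitor alpha-2-macroglobulin, rose from 107 ± 25.6 to 342 ± 181 CPM (log2 fold change 1.66, adjusted p = 0.00436) beside A2M-AS1 at 7.23 ± 1.68 and 4.24 ± 0.80 CPM (log2 fold change -0.79, adjusted p = 0.0389). CEBPB, a transcription factor of inflammatory responses, had a log2 fold change of 1.90 (adjusted p = 0.00123) and CEBPB-AS1 one of 0.77. MIDEAS rose by 1.16 and MIDEAS-AS1 stood at -0.43. Without 1 of the WT replicates the A2M call was lost for 4 of the 5 (adjusted p of up to 0.219 over the alternatives), as it was for MIDEAS, CALCRL and ZNF674, for 3 of the 5 for SYT15, for 2 for CEBPB and for 1 for NEXN, while HLA-F and VLDLR kept theirs. The others were CALCRL (1.58), VLDLR (1.38), SYT15 (1.88), ZNF674 (1.05) and NEXN (-1.04). SYT15-AS1 had nearly the change of SYT15 at 1.82 without passing the cut-offs. RNF213-AS1, the remaining antisense RNA of a listed interferon-stimulated gene, went from 1.25 ± 0.29 to 1.02 ± 0.36 CPM while RNF213 went from 221 ± 77.0 to 434 ± 211 CPM (adjusted p = 0.0719).

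For each of the 11 LINC RNAs called higher in WT, the nearest tested gene with another kind of name was not called. Of all genes tested, 2.48% were called higher and 0.512% lower, so 11 genes are too few to show a lack of calls. Some of these neighbours had untreated WT means under 1 CPM. They were LOC105371224 (0.155 CPM) for LINC01138, LOC124904949 (0.266 CPM) for LINC02970 and FGGY-DT (0.418 CPM) for LINC01358. Whether the LINC RNAs and their neighbours respond separately was not tested. ADA, 4752 bases from LINC01260, had a log2 fold change of -0.18 (adjusted p = 0.653), and CDH18, 725140 bases from LINC02100, one of 0.72 (adjusted p = 0.005), under 2-fold. NFKBIZ, a regulator of NF-kappaB target genes 79837 bases from LINC02085, had 0.89 (adjusted p = 0.0105).

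Some long non-coding RNAs with other kinds of name were looked at as well. Of 57 listed, 51 were tested, and 5 rose in WT (all genes 2.48%). SNHG17 had a log2 fold change of 1.62, SNHG8 of 1.46, SNHG15 of 1.38, SNHG1 of 1.26 and GAS5 of 1.12. These 5 calls held in every alternative, and with the block 9 were called, all higher (all genes 4.44%). In the libraries labelled KO SNHG17 (1.73), SNHG1 (1.53) and SNHG32 (1.03) rose (all genes 1.70%). SNHG17 and SNHG32 were not past the cut-offs without KO replicates 1, 3, 4 or 5 in turn, and SNHG1 without 3, 4 or 5. SNHG32 was also not past them with scaling by library totals or with DESeq2's normal shrinkage. The list was drawn up with results of these data known, so its counts are not set against those of the members.

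Some of these RNAs were high in certain clones and near 0 in others, in both genotypes and both treatments. The 6 with the widest range over the untreated libraries spanned from 115-fold for LINC02700 to 143-fold for LINC01029 on the scale of CPM + 0.1. TP73-AS1, beside the p53 family gene TP73, had 10.8 and 13.3 CPM in untreated WT replicates 4 and 5, and 9.5 and 10.5 CPM in the treated libraries of these clones, but at most 0.0989 CPM in any other library. LINC02700 had 11.4 CPM in untreated and 11.1 CPM in treated WT replicate 4, and 5.11 and 4.98 CPM in KO replicate 2. LINC00665 reached 18.3 and 15.6 CPM in KO replicate 2 and 9.06 and 11.3 CPM in WT replicate 4, and lay under 1 CPM in the other libraries labelled KO. LINC02074 stood at 12.2, 5.04, 5.74, 0.190 and 0.0348 CPM in the untreated WT clones and at 13.3, 5.33, 4.51, 0.119 and 0.0741 CPM in the treated ones, so the order of the clones was nearly kept. LINC01029 reached 14.2 and 13.9 CPM in KO replicate 1.

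Over the 10 clones as labelled, the untreated and treated levels of these 6 RNAs on the log2(CPM + 0.1) scale correlated at r of 0.96 or more for 4 of them, but at 0.31 for LINC02577 and 0.86 for LINC02700. LINC02577 lay at 21.6, 2.95, 8.88, 5.63 and 0.0788 CPM in the untreated libraries labelled KO and at 24.7, 9.47, 19.9, 0.253 and 10.8 CPM in the treated ones, with replicates 4 and 5 out of order. With replicates 4 and 5 exchanged, r became 0.98 for LINC02577 and 0.997 for LINC02700. Over all 571 members, the deviation of each treated library from its group correlated best with the untreated library of its own number in all 5 WT clones (r from 0.75 to 0.88) and in KO replicates 1 to 3 (0.71 to 0.84). The treated library of KO replicate 4 correlated with untreated replicate 5 at 0.79 and with its own number at 0.03, and treated replicate 5 with untreated replicate 4 at 0.68 and with its own number at 0.12. Genes are not independent replicates, and the labels, whose clone names give the same pairing as the numbers, were kept. The unblocked comparisons do not use the numbers.

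On-and-off patterns of this kind occurred in 12 of the 571 members (2.10%) and in 193 of the 14550 other genes with a mean of at least 1 CPM (1.33%). A range over 10-fold among untreated libraries was seen in 36 members (6.3%) and in 733 of the other genes (5.04%), and the median log2 range was 1.36 and 0.96, respectively. The members are expressed at lower levels than most other genes, and the part of level in these ranges was not tested.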

How the data were processed

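Stranded, polyA-selected RNA of 20 U2OS libraries was sequenced by the authors. Per the labels, reads were aligned with STAR (2.7.9a) to GRCh38, and uniquely mapped reads were summed per RefSeq gene with featureCounts (2.4.0). The deposited table holds these raw counts. The strand setting is not given in the sources used here, so overlapping antisense and sense genes cannot be told apart. Polyadenylated RNA alone was read, which leaves non-polyadenylated RNAs undercounted. CPM were computed here with TMM-scaled library sizes, apart from the limit of 1 CPM, which uses column totals. A count of 3 corresponds to 0.0411 to 0.0643 CPM.

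Quasi-likelihood tests of edgeR (4.0.16, R 4.3.3) were run after filterByExpr on the 10 libraries of each comparison, with Benjamini-Hochberg adjustment over all genes tested, and the difference of responses on all 20. Genes were called at an adjusted p under 0.01 and more than 2-fold, the cut-offs used in the study. DESeq2 (1.42.0), other scalings, no filter, other level limits, a replicate block and leaving out each replicate served as alternatives. The scripts were tested on simulated data. Each group holds 5 different clones, and each KO line is 1 clone, so p-values measure the spread between clones.

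Numbers mark a clone within a genotype. Over the members, treated and untreated deviations correlated at 0.75 to 0.88 in WT and 0.71 to 0.84 in KO replicates 1 to 3, but at 0.03 and 0.12 in KO replicates 4 and 5. Same-numbered WT and KO libraries correlated from -0.31 to 0.31 and are different clones.

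The rule for named RNAs took the called members (the 6 largest where more than 12 were called), the 8 with the highest mean CPM, antisense RNAs of listed interferon-stimulated genes, the 6 with the widest untreated range, 3 on either side of the limit, and sense or nearest genes of called members. The remaining called members are named too. The members and lists were chosen with earlier results of these data known.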

Additional observations from a re-analysis of the deposited data

Results flagged for a closer look

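In 219 groups of 5 libraries over 55 members, 26 groups had 1 library far from the other 4 (by Dixon's 95% critical value). Chance would give about 11 for members chosen without regard to their values. These members include those picked for a wide range between clones or after their values were seen. The treated and untreated libraries of a clone are also not independent, so the 26 cannot be set against the 11. IGFL2-AS1 had 17.2 CPM in untreated WT replicate 5. IRF1-AS1 had 0.539 CPM in untreated WT replicate 5. LINC00452 had 124.4 CPM in treated KO replicate 2. LINC00511 had 7.61 CPM in treated KO replicate 1. LINC00665 had 18.3 CPM in untreated KO replicate 2 and 15.6 CPM in treated KO replicate 2. LINC01029 had 3.48 CPM in untreated WT replicate 4, 2.8 CPM in treated WT replicate 4 and 14.2 CPM in untreated KO replicate 1. LINC02074 had 3.82 CPM in untreated KO replicate 1 and 3.94 CPM in treated KO replicate 1. LINC02085 had 6.14 CPM in untreated WT replicate 3. LINC02261 had 8.21 CPM in treated WT replicate 1 and 12.1 CPM in treated KO replicate 3. LINC02700 had 11.4 CPM in untreated WT replicate 4, 11.1 CPM in treated WT replicate 4, 5.11 CPM in untreated KO replicate 2 and 4.98 CPM in treated KO replicate 2. LINC02806 had 6.46 CPM in untreated WT replicate 4 and 14 CPM in untreated KO replicate 2. LINC03002 had 7.95 CPM in untreated WT replicate 5. MIDEAS-AS1 had 3.08 CPM in untreated WT replicate 3. PAN3-AS1 had 1.54 CPM in treated KO replicate 5. RNF213-AS1 had 1.66 CPM in treated WT replicate 3. SYT15-AS1 had 4.88 CPM in treated KO replicate 2. TP73-AS1 had 0.0197 CPM in untreated KO replicate 5, under the floor of 3 counts, where the nearest library had 0 CPM. The IRF1-AS1 library was low and the others were high. The KO groups are named by their label.

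For LINC02159 and TNS2-AS1 every WT clone was lower and every labelled KO pair higher after IFNγ, with responses that differed by -0.92 and -0.40 on the log2 scale (WT minus KO label), and this difference was picked by that pattern and not tested further. These were 2 of 571 members, and the share of all genes with this pattern was not computed. Neither was called in the difference of responses, so the pattern is not read as a difference between genotypes. The pairing of KO replicates 4 and 5 is doubtful, as the clone correlations show.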

How the results depend on the processing

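In WT the 20 called members became 37 with DESeq2 without shrinkage, 56 with the replicate block, 57 at an adjusted p under 0.05 with no fold limit and 13 when only members sharing no exon base were counted, an alternative chosen after seeing the data, and leaving out 1 replicate gave 12 to 19. In the libraries labelled KO the 8 became 32 with DESeq2 without shrinkage, 23 with its normal shrinkage, 21 with all 20 libraries fitted together, 26 with the replicate block, 53 with the block and replicates 4 and 5 exchanged, 33 at the looser cut-off and 5 among members sharing no exon base, and leaving out 1 replicate gave 4 to 11. The causes were not tested, apart from the looser cut-off and the smaller member list, which change what is counted. WT against KO and the difference of responses gave 0 members in every alternative run. For WT against KO the block joins different clones that only share a number, so it is no check of that result. Over all genes, the calls there went with the block from 3 to 1 untreated and from 3 to 2 after IFNγ. No named gene reversed its direction. DESeq2's normal shrinkage was not run for the difference of responses. Scaling by library totals shifted the median of all genes by at most 0.07 on the log2 scale. Few untreated counts limit the folds of LINC01358 and LINC01260.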
